A study of Mus musculus with 4 samples.

Results

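Matrix metalloproteinases are zinc-dependent enzymes that cut collagen, elastin and other matrix proteins, and 10 of their genes that are studied in emphysema were read in mouse lung. They were found by gene name among the non-control probes of 4 Agilent 1-colour arrays, which gave 15 probes of 56605 and 10 genes of 27195. By the cells best known to make them, Mmp8 and Mmp9 were set apart as neutrophil enzymes, Mmp12 as the macrophage enzyme and Mmp2, Mmp3, Mmp11, Mmp13, Mmp14 and Mmp19 as stromal enzymes. Mmp7, an enzyme of epithelium, stood alone. Several of them are made by more than 1 cell type (macrophages, for example, also make Mmp9, Mmp13, Mmp14 and Mmp19), so these classes are names from background knowledge and not a measurement.

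The arrays came from a 2 by 2 layout of surgery and inhaled agent in C57BL/6J mice, sampled at 3 weeks per the labels. ORX/PPE and ORX/PBS lungs were from mice given ORX with PPE or PBS, and sham/PPE and sham/PBS lungs from mice given sham surgery with PPE or PBS. ORX was read as orchiectomy, which removes the testes and so most testosterone, and PPE as porcine pancreatic elastase, from the testosterone deficiency and elastase in the series title. Each group was 1 array of RNA pooled from 5 mice, so no value has a replicate, and all groups were whole frozen lung with the age of the mice not given in the sources used here. The 10 alveolar epithelial markers checked, such as Sftpc and Ager, were well above background on all 4 arrays. The cardiac and fat markers were not even across them: sums of their scaled signals were 3178, 6435, 16537 and 7906 percent of the array's 75th percentile for 10 cardiac markers on ORX/PPE, ORX/PBS, sham/PPE and sham/PBS, and 2136, 3218, 4350 and 2721 percent for 8 fat markers. The brightest genes weigh most in such sums, above all Cfd among the fat markers.

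In emphysema some enzymes of this family can widen air spaces by breaking the elastic fibres and collagen of alveolar walls. Most of the family are secreted as inactive proenzymes, are opened by other proteases and are held in check by the Timp proteins. Neutrophils carry Mmp8 and Mmp9 ready made in granules, whereas in mice Mmp12, the macrophage elastase, is made by alveolar macrophages. Inhaled pancreatic elastase itself cuts elastin, and neutrophils and then macrophages enter the lung after it.

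The sequences that follow show what the arrays read and what stands before the genes that lay furthest apart. Of the 15 probes, only a single probe of Mmp9 and a single probe of Mmp12 have mm9 coordinates that cover more than their 60 bases (1210 and 516), as a probe across an intron does. An mm9 annotation of exons and UTRs was not used here. The Mmp9 probe, on the plus strand at chr2:164779091-164780300, is the one used for Mmp9, and the Mmp12 probe, on the plus strand at chr9:7354810-7355325, is the second brightest of 3.
Mmp9 probe: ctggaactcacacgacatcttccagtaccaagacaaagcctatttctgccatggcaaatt
Mmp12 probe: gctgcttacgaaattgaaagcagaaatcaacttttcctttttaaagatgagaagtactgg

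RefSeq promoter sequences of build GRCm38.p6 were found for 7 of the 10 genes, in 9 entries, and the 250 bases before the start were searched. Of the genes that passed 2-fold below, Mmp12, Mmp8 and Mmp13 had an entry, and they are printed from the plus strand with 2 motifs in capitals. The motifs are the AP-1 site TGAGTCA or its reverse TGACTCA, known from many promoters of this family, and the TATA box TATAAA on the gene strand. They do not overlap each other. Mmp12 has a further entry upstream, which holds neither.
Mmp12, chr9:7347124-7347373: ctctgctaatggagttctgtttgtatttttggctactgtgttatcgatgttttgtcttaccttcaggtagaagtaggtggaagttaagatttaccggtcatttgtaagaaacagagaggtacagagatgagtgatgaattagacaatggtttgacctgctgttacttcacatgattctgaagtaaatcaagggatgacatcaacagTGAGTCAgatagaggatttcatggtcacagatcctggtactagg
Mmp8, chr9:7558179-7558428: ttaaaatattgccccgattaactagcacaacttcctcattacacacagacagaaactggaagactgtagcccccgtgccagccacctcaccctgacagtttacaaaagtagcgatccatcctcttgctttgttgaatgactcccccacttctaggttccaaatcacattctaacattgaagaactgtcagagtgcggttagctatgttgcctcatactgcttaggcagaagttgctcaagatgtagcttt
Mmp13, chr9:7272264-7272513: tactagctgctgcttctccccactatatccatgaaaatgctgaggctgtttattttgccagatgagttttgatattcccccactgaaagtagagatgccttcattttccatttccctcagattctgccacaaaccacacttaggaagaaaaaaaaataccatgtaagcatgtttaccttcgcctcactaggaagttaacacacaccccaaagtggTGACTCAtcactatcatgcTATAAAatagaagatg

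The AP-1 letters began 44 bases before the start of Mmp12 and 35 bases before that of Mmp13, and they were not in this window of Mmp8. They were in 4 of the 9 entries (1 each of Mmp3, Mmp7, Mmp12 and Mmp13), while 4.46% of all 32851 promoter entries did. TATAAA was in entries of Mmp3, Mmp7 and Mmp13 and in 7.59% of all entries. The full androgen receptor palindrome, searched on both strands because orchiectomy removes testosterone, was in 0 of the 9 entries and in 3 of all 32851. Its single arm TGTTCT, on either strand, was in entries of Mmp7 and Mmp11 and in 16.1% of all.

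Values below are the processed signal of the probe with the highest mean, in linear intensity units and with the error that the scanner software gives each spot. Differences are on the log2 scale after each array was scaled to its 75th percentile, 860.9 on ORX/PPE, 999.2 on ORX/PBS, 829.8 on sham/PPE and 852.9 on sham/PBS. The software's error, which assumes 10% of the signal or more, was 0.20 to 0.35 for a difference of any of the 10 probes used. Probes spotted 10 times gave an SD of 0.0518 for a difference. Both cover the spot and not the mice, so differences below are between pools, without a test, and 2-fold was the threshold for a call. All 10 probes used were well above background on all 4 arrays.

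**Figure D1:**
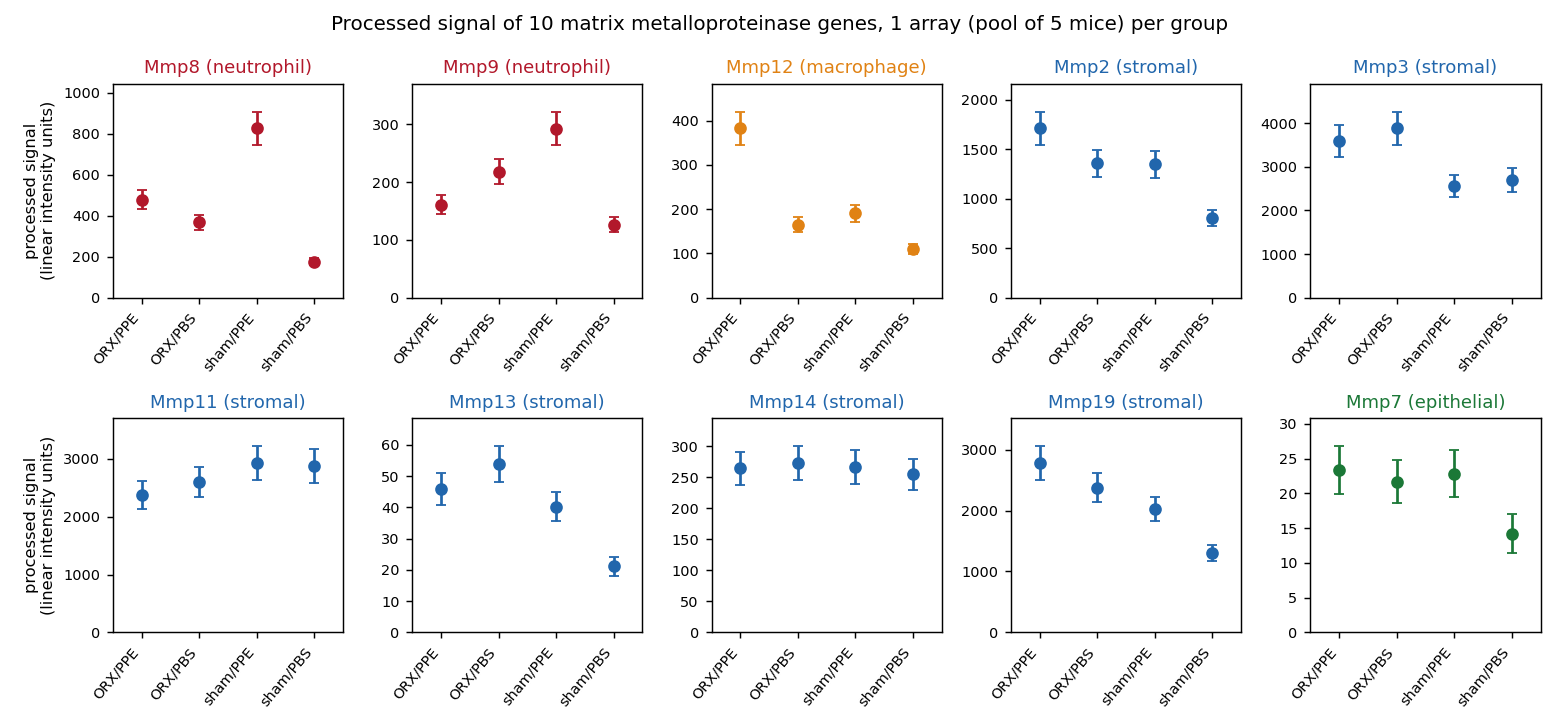
Processed signal (linear intensity units, axes from 0) of the probe used for each of the 10 genes on ORX/PPE, ORX/PBS, sham/PPE and sham/PBS, with the scanner software's error as bars and 1 array of 5 pooled mice per point. Mmp8 and Mmp9 are highest on sham/PPE, Mmp12 is highest on ORX/PPE, and Mmp14 differs little between arrays.

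Few of the 10 genes passed 2-fold in any comparison, and those that did were Mmp12, Mmp8, Mmp9 and Mmp13, all higher. With PPE in ORX mice, 1 of the 10 was at least 2-fold higher (Mmp12) and 0 lower, where among 21159 genes above background on at least 1 array of the pair 0.695% were higher, 0.369% lower and 1.06% either. With PPE in sham mice, 2 were higher (Mmp8 and Mmp9) and 0 lower, where among 20859 genes 1.26% were higher, 0.451% lower and 1.71% either. For ORX under PPE, 0 were higher and 0 lower, where among 20780 genes 0.322% were higher, 1.41% lower and 1.74% either. For ORX under PBS, 1 was higher (Mmp13) and 0 lower, where among 21205 genes 0.585% were higher, 1.26% lower and 1.84% either. The members' medians were 0.25 for PPE in ORX, 0.75 for PPE in sham, 0.06 for ORX under PPE and 0.46 for ORX under PBS, against 0.00, 0.02, -0.01 and -0.01 over all genes measured on both arrays. The 10 genes were chosen with earlier results of these data known, so these counts describe them and are no independent support.

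The neutrophil enzymes were highest in sham lungs given elastase, and of the 10 genes their PPE differences lay furthest apart between the surgeries, by -1.68 for Mmp8 and -1.48 for Mmp9 (ORX minus sham). Mmp8, the neutrophil collagenase, read 478 ± 47.9 on ORX/PPE, 367 ± 36.7 on ORX/PBS, 825 ± 82.5 on sham/PPE and 175 ± 17.6 on sham/PBS. Sham/PPE stood well above the other arrays, sham/PBS lowest, and both ORX arrays lay between them. With PPE, Mmp8 was 0.60 higher in ORX mice and 2.28 higher in sham mice, or 1.51-fold and 4.85-fold. In sham mice only 11 of 19643 genes measured on both arrays stood further up. Its ORX difference changed sign with the agent, at -0.84 under PPE and 0.84 under PBS. The probe lies on mm9 chromosome 9 from 7567968 to 7568026.

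Mmp9, the gelatinase of neutrophils and macrophages that cuts denatured collagen and elastin, read 161 ± 16.3 on ORX/PPE, 218 ± 21.9 on ORX/PBS, 293 ± 29.4 on sham/PPE and 126 ± 12.8 on sham/PBS. It too was highest on sham/PPE and lowest on sham/PBS. In ORX lungs, unlike Mmp8, it read lower with PPE than with PBS. The PPE difference was -0.23 in ORX mice and 1.26 in sham mice, or 2.39-fold in sham mice. ORX lungs were at -0.92 under PPE and 0.56 under PBS. Another probe of Mmp9 read 78.3, 103, 131 and 59.0 on the same arrays in the same order, and its 4 differences of -0.18, 1.19, -0.80 and 0.57 had the same signs. With normexp background correction the difference of Mmp9 with PPE in sham mice was 0.99, just under 2-fold, while Mmp8 stayed at 1.96.

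Because whole lung was used, a difference in neutrophil number and a difference in RNA per neutrophil cannot be told apart. For Mmp9, macrophages as its source cannot be told apart from them either. Of 15 neutrophil markers, 1 was at least 2-fold higher with PPE in ORX mice and 6 in sham mice, with 0 lower in either. In sham mice the calprotectin subunits S100a8 and S100a9 were 2.35 and 1.97 higher, the secreted protein Retnlg 2.18 and the decoy receptor Il1r2 1.66. Under PPE, 2 of the 15 were at least 2-fold lower in ORX lungs, the granule protein Ltf at -1.60 and the chemokine receptor Cxcr2 at -1.03. Under PBS, 1 of the 15 was at least 2-fold higher in ORX lungs, S100a8 at 1.12, and 0 were lower. The scaled signals of the list summed to 13083, 11171, 18787 and 9468 percent of the 75th percentile on ORX/PPE, ORX/PBS, sham/PPE and sham/PBS. Bright genes carry such a sum, here S100a9 and Csf3r, which read 44425 and 45291 on ORX/PPE. Not every marker followed, since with PPE in sham mice Ly6g was at 0.23, Csf3r at -0.11, Mpo at 0.05 and Elane at 0.01. Of 13 markers above background on all arrays, 10 were highest on sham/PPE, as both enzymes were, and so were 25.4% of 19320 genes. The list was chosen with earlier results of these data known. The part of these markers in the result was not tested.

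**Figure D2:**
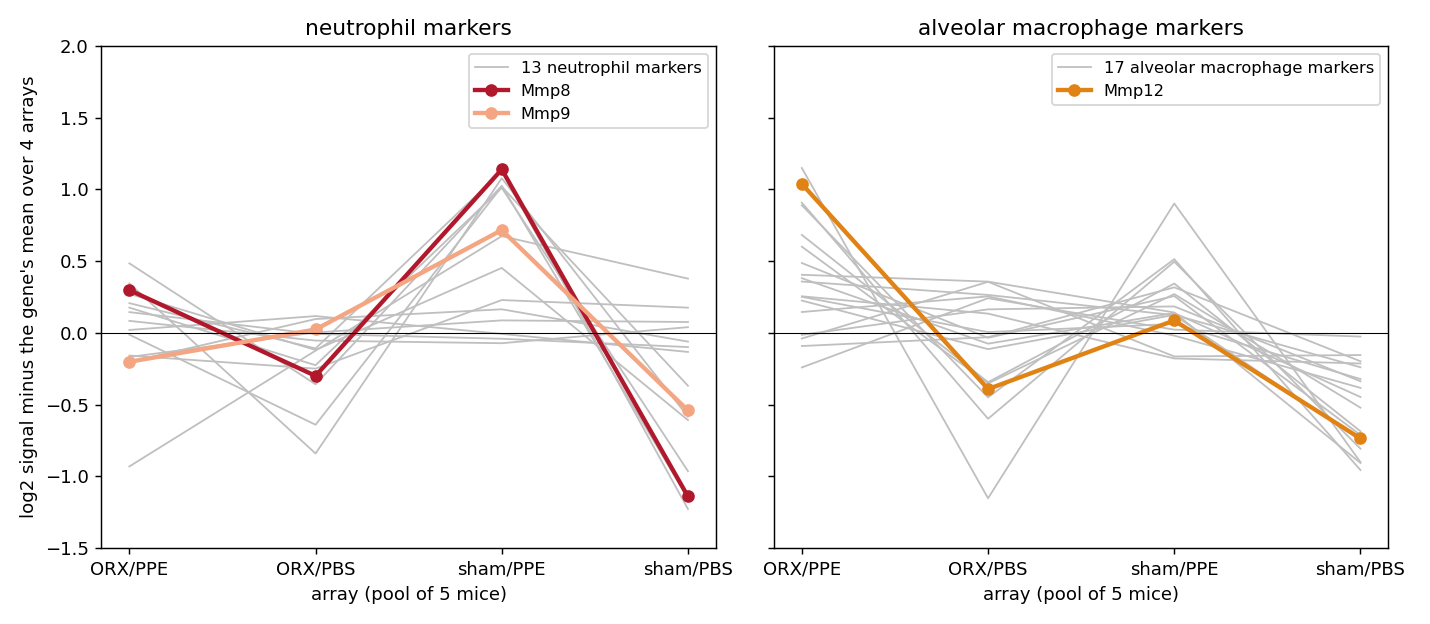
Log2 signal minus each gene's mean over the 4 arrays, for 13 neutrophil markers (grey) with Mmp8 and Mmp9 on the left and 17 alveolar macrophage markers (grey) with Mmp12 on the right. Mmp8 lies 1.14 above its mean on sham/PPE and Mmp12 lies 1.04 above its mean on ORX/PPE.

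Mmp12 had another order of arrays than the neutrophil enzymes, with ORX lungs given elastase on top. After scaling Mmp2 and Mmp19 shared this order, although before it both read higher on ORX/PBS than on sham/PPE. For Mmp19 the scaled gap between sham/PPE and ORX/PBS was only 0.04. Mmp12 read 382 ± 38.3 on ORX/PPE, 165 ± 16.6 on ORX/PBS, 190 ± 19.2 on sham/PPE and 111 ± 11.4 on sham/PBS. ORX/PPE stood clear of the rest and sham/PBS was lowest. PPE went with a value 1.43 higher in ORX mice and 0.82 higher in sham mice, or 2.69-fold and 1.77-fold. In ORX mice 13 of 19885 genes stood further up. ORX lungs were 0.95 higher under PPE and 0.34 higher under PBS, while the mean of its 3 probes gave 0.68 and -0.15. The probe lies on mm9 chromosome 9 from 7358559 to 7358618.

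The other probes of Mmp12 were dim and gave differences of other sizes. The probe across the intron, printed earlier, read 34.0 ± 4.20, 28.6 ± 3.76, 24.9 ± 3.51 and 17.5 ± 2.97 on ORX/PPE, ORX/PBS, sham/PPE and sham/PBS. It was also highest on ORX/PPE and lowest on sham/PBS, but was only 0.47 higher with PPE in ORX mice and 0.55 higher in sham mice. The last probe was well above background on ORX/PPE alone, at 18.7, and was at least 2.28-fold higher there than on ORX/PBS and at least 1.61-fold higher than on sham/PPE.

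Of 17 alveolar macrophage markers, all above background on every array, 4 were at least 2-fold higher with PPE in ORX mice and 5 in sham mice, with 0 lower. In ORX mice these were the scavenger receptor Marco at 2.30, the glycoprotein Gpnmb at 1.51, the lipid-sensing receptor Trem2 at 1.34 and the chitinase-like Chil3 at 1.03. With PPE in ORX mice 12 of the 17 were above 0, and others, such as Car4 at -0.48 and Fabp1 at -0.40, were below. In sham mice Marco was at 1.80, Trem2 at 1.47, Gpnmb at 1.30 and Ear1 at 1.05. Marco and Gpnmb had the larger difference in ORX mice, as Mmp12 did, and Trem2 and Ear1 had it in sham mice. The list's median was 0.25 with PPE in ORX and 0.59 in sham mice, so it was larger in sham mice. For ORX under PBS 2 of the 17 were at least 2-fold higher, Ear1 at 1.26 and Ear2 at 1.01, and 0 were lower. For ORX under PPE 0 passed 2-fold. The list's ORX medians were 0.23 under PPE, with 14 of the 17 above 0, and 0.35 under PBS, with 16 above 0. On ORX/PPE 12 of the 17 were highest and on sham/PBS 14 were lowest, where 24.2% and 31.3% of 19320 genes were. This list too was chosen with earlier results of these data known. The scaled signals of the 17 summed to 16749, 10961, 14031 and 7909 percent on ORX/PPE, ORX/PBS, sham/PPE and sham/PBS. Chil3, the brightest of them at 71105 on ORX/PPE, weighs most in these sums. Of 12 markers of monocytes and interstitial macrophages 0 passed 2-fold in any of the 4 comparisons, with medians of -0.15 for PPE in ORX and 0.28 for PPE in sham mice. Their ORX medians were 0.12 under PPE, with 7 of the 12 above 0, and 0.48 under PBS, with 11 above 0. The part of macrophage numbers in the value of Mmp12 was not tested.

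Of the 6 stromal enzymes, Mmp2, Mmp13 and Mmp19 spanned over 2-fold across the 4 arrays, and Mmp3, Mmp11 and Mmp14 spanned less. Mmp2, the gelatinase of fibroblasts, read 1710 ± 171 on ORX/PPE, 1357 ± 136 on ORX/PBS, 1346 ± 135 on sham/PPE and 805 ± 80.5 on sham/PBS. Mmp19, which cuts basement membrane proteins, read 2776 ± 278, 2373 ± 237, 2022 ± 202 and 1309 ± 131 on the same arrays. Both were highest on ORX/PPE and lowest on sham/PBS, and neither passed 2-fold in any comparison. With PPE, Mmp2 was 0.55 higher in ORX and 0.78 higher in sham mice, and Mmp19 was 0.44 and 0.67 higher. ORX lungs held more of both, by 0.29 under PPE and 0.53 under PBS for Mmp2 and by 0.40 and 0.63 for Mmp19. Their probes lie at chr8:95376840-95376899 (Mmp2) and chr10:128237761-128237820 (Mmp19) of mm9. Another probe of Mmp19 was higher in all 4 comparisons too, by 0.38 to 0.73. Of the 10 genes, Mmp2, Mmp12 and Mmp19 were the ones higher in all 4 comparisons, except that the mean of all probes put Mmp12 at -0.15 for ORX under PBS.

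Mmp13, the main collagenase of mouse connective tissue, was dim, and sham/PBS stood apart from the rest. It read 45.8 ± 5.15 on ORX/PPE, 53.8 ± 5.77 on ORX/PBS, 40.2 ± 4.66 on sham/PPE and 21.1 ± 3.09 on sham/PBS. Both ORX arrays and sham/PPE were close, and sham/PBS lay 0.97 below the next array on the log2 scale. The PPE difference was thus -0.02 in ORX mice and 0.97 in sham mice, and the ORX difference 0.14 under PPE and 1.12 under PBS, or 2.18-fold. After background correction by normexp the PPE difference in sham mice was 0.49 and the ORX difference under PBS was 0.28, so this call did not outlast it. The probe lies on mm9 chromosome 9 from 7282762 to 7282821.

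Mmp3, Mmp11 and Mmp14 were near the same level with PPE and PBS. Mmp3, a stromelysin that also opens other proenzymes, read 3597 ± 360 on ORX/PPE, 3883 ± 388 on ORX/PBS, 2568 ± 257 on sham/PPE and 2697 ± 270 on sham/PBS. Both ORX arrays stood above both sham arrays, by 0.43 under PPE and 0.30 under PBS. Mmp11, a stromelysin of fibroblasts in remodelling tissue, read 2376 ± 238, 2592 ± 259, 2925 ± 292 and 2879 ± 288 on the same arrays, with ORX at -0.35 under PPE and -0.38 under PBS. Its sham arrays were thus the higher ones. PPE differences of Mmp3 were 0.10 in ORX and -0.03 in sham mice, and those of Mmp11 were 0.09 and 0.06. Mmp14, the membrane-bound enzyme that activates the proenzyme of Mmp2, read 264 ± 26.5, 272 ± 27.3, 266 ± 26.8 and 254 ± 25.6, and its 4 arrays spanned 0.24 on the log2 scale. Each of its 4 differences, from -0.13 to 0.17, was smaller than the scanner error of 0.20 to 0.21.

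Of 12 fibroblast markers, 0 passed 2-fold in any comparison, and their medians were 0.08 for PPE in ORX, 0.22 for PPE in sham, -0.11 for ORX under PPE and 0.03 for ORX under PBS. Under PPE, 9 of 10 cardiac markers and 4 of 8 fat markers were at least 2-fold lower in ORX lungs, with 0 higher. The part of these tissues in the differences of the enzymes was not tested.

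Mmp7, the matrilysin of airway and injured alveolar epithelium, was the dimmest of the 10. It read 23.3 ± 3.41 on ORX/PPE, 21.7 ± 3.07 on ORX/PBS, 22.8 ± 3.35 on sham/PPE and 14.2 ± 2.79 on sham/PBS. As for Mmp13, sham/PBS was lowest. After scaling, ORX/PBS lay between the PPE arrays and sham/PBS, with gaps of 0.32 and 0.39 on the log2 scale. The PPE differences were 0.32 in ORX and 0.73 in sham mice, and ORX differences -0.02 under PPE and 0.39 under PBS, all of them short of 2-fold. With normexp its PPE difference in sham mice was 0.32 and its ORX difference under PBS was -0.11, and another probe was not well above background on any array. Of 10 airway epithelial markers 0 were at least 2-fold higher in any comparison. The basal cell keratin Krt15 was lower with PPE in ORX mice, at -1.36, and for ORX under PPE, at -1.79, where the secreted airway protein Bpifa1 was also lower, at -1.40. Medians of the list were -0.08 for PPE in ORX and -0.18 for PPE in sham mice.

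**Figure D3:**
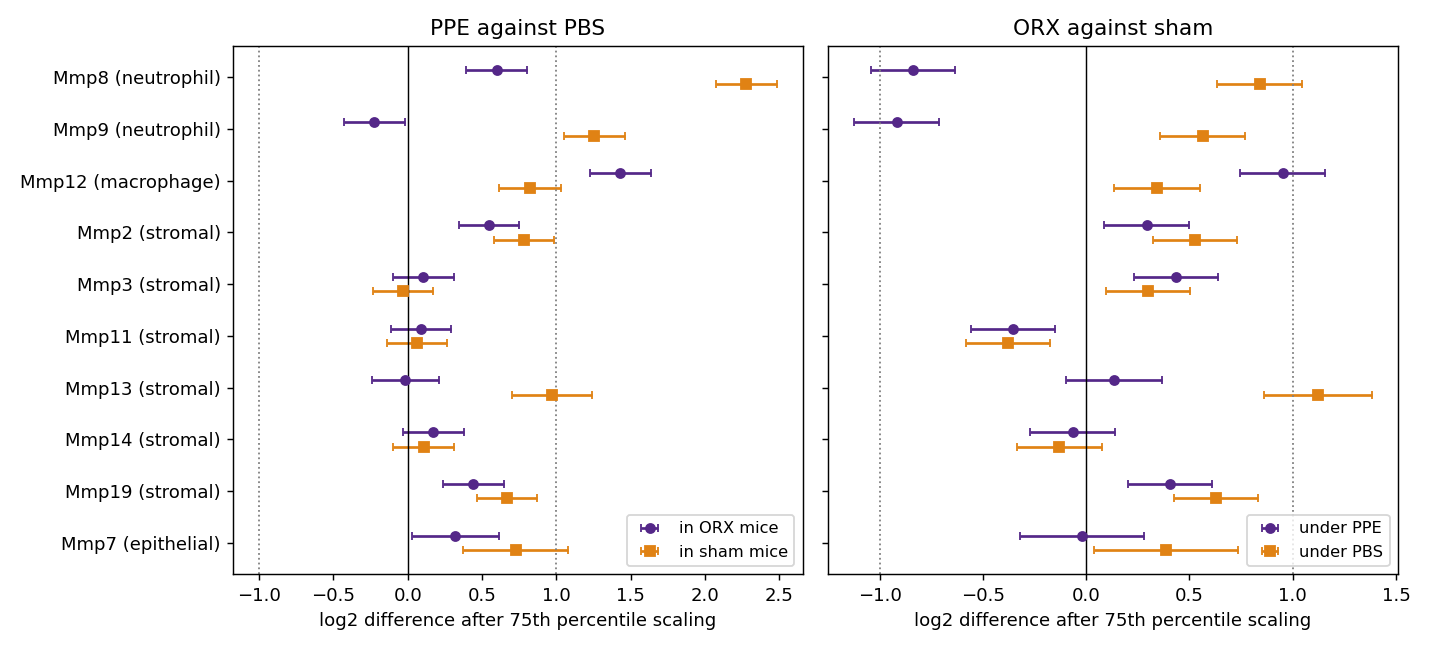
Log2 differences of the 10 genes after 75th percentile scaling, PPE against PBS on the left (in ORX and in sham mice) and ORX against sham on the right (under PPE and under PBS), with the scanner software's error as bars and dotted lines at 2-fold. Mmp8 and Mmp9 lie on opposite sides of 0 for ORX under PPE and under PBS, while Mmp12, by this probe, lies above 0 in all 4 comparisons.

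The sham/PBS array was the lowest of the 4 arrays for 7 of the 10 genes (all but Mmp3, Mmp11 and Mmp14), and for 31.3% of 19320 genes above background on every array. It was the highest array for 0 of the 10 and for 30.1% of all genes. The PPE comparison in sham mice and the ORX comparison under PBS share this array, and sham/PPE enters both PPE in sham mice and ORX under PPE. With 1 array per group, the agent or surgery and the pool cannot be told apart.

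An additive fit of surgery and agent over all 4 arrays, with limma and Benjamini-Hochberg adjustment over 20656 genes, called 0 genes for PPE and 0 for ORX at an adjusted p of 0.05. It treats any interaction as noise and leaves 1 residual degree of freedom per gene. At an unadjusted p of 0.05, 5 of the 10 genes were past the threshold for PPE, all of them higher, where 5.62% of all genes were. Mmp12 came first at 1.13 ± 0.20 (SE, limma adjusted p = 0.751), higher in 2 of 2 surgeries. Mmp2 followed at 0.67 ± 0.14 (limma adjusted p = 0.755) and Mmp19 at 0.55 ± 0.14 (limma adjusted p = 0.788). Mmp8, at 1.44 ± 0.45, had the larger difference but the wider error (limma adjusted p = 0.855), and Mmp7 was at 0.52 ± 0.16 with the same adjusted p. For ORX 4 of the 10 were past the unadjusted threshold, where 7.93% of all genes were. These were Mmp19 at 0.52 ± 0.14, Mmp12 at 0.65 ± 0.20 and Mmp2 at 0.41 ± 0.14, all higher, and Mmp11 at -0.37 ± 0.13, with adjusted p-values of limma from 0.584 to 0.628. Which genes were past the unadjusted threshold changed with the setting. For ORX, Mmp12, Mmp2 and Mmp11 were not past it with the mean of all probes or with no filter on dim probes. Mmp12 was then at 0.26 ± 0.25 and 0.65 ± 0.23. For PPE, Mmp7 was not past it with either of these settings, nor Mmp8 with no filter. Normexp also put Mmp3 for ORX and Mmp13 for PPE past it. Requiring all 4 arrays above background put Mmp3 past it for ORX too. With median centring Mmp11 was not past it for ORX. No member held after adjustment.

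On chromosome 9, 5 of the members (Mmp13, Mmp12, Mmp3, Mmp8 and Mmp7 in this order) lie in a cluster of 10 metalloproteinase genes, and the neighbours had differences of different sizes and signs. Of the 5 other genes in it, Mmp1b, Mmp1a, Mmp10 and Mmp20 were not well above background on any array. Mmp27, next to Mmp8, had PPE differences of -0.45 in ORX and 0.95 in sham mice, and ORX differences of -0.72 under PPE and 0.67 under PBS. Mmp9, which lies on chromosome 2, had the same 4 signs. Mmp27 was dim, and normexp left 0.04, 0.44, -0.35 and 0.04. Mmp3, between Mmp12 and Mmp8 in the cluster, was at 0.10 for PPE in ORX and -0.03 for PPE in sham mice.

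**Figure D4:**
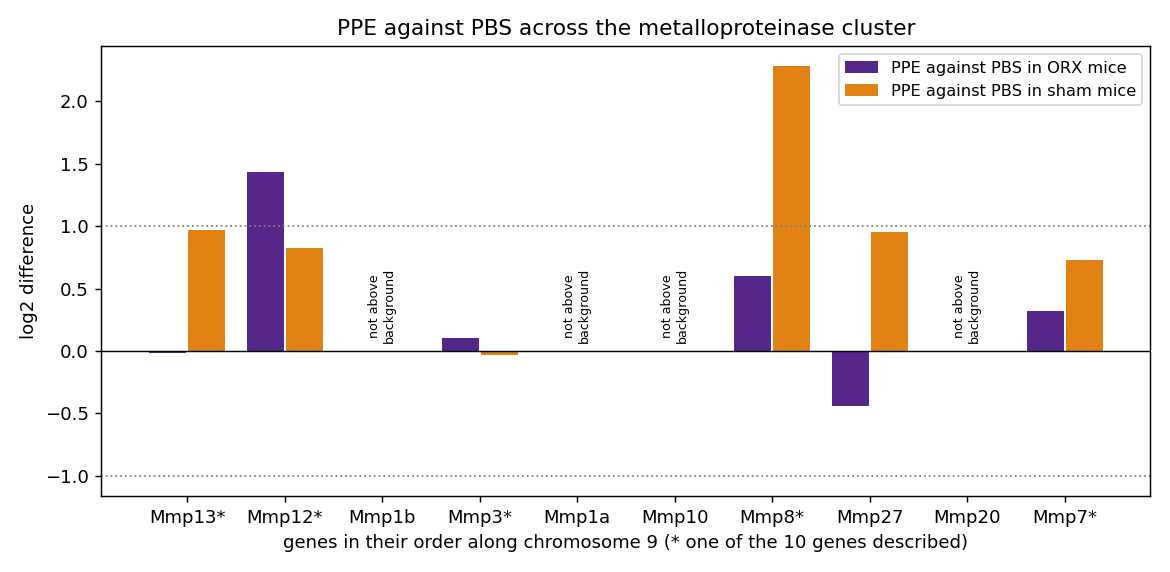
Log2 differences of PPE against PBS in ORX and in sham mice for the 10 metalloproteinase genes of chromosome 9 in their order along it, with dotted lines at 2-fold and 4 genes marked as not above background on any array. Mmp8 reaches 2.28 in sham mice and Mmp12 reaches 1.43 in ORX mice, while Mmp3 between them stays near 0.

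Apart from Lcn2, no other gene of the family and none of its listed regulators passed 2-fold. Of 13 other metalloproteinase genes 5 were not well above background on any array and 0 passed 2-fold in any comparison. Of the inhibitors Timp1, Timp2, Timp3, Timp4, Reck and A2m, 0 passed 2-fold, and A2m was not above background. Timp1, the inhibitor induced in injured tissue, was 0.14 higher with PPE in ORX and 0.30 higher in sham mice, and Timp3, which binds to the matrix, was 0.12 and 0.32 higher. ORX lungs were at -0.39 under PPE and -0.23 under PBS for Timp1. Of 14 activators and partners, 1 passed 2-fold, for PPE in sham mice. It was Lcn2, whose protein binds and protects Mmp9, at 0.69 in ORX and 1.25 in sham mice. The plasminogen activator receptor Plaur was at 0.21 in ORX and -0.46 in sham mice.

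For the 6 members whose arrays spanned at least 1 on the log2 scale, the genes nearest in pattern were sought among 19320 by Euclidean distance of the 4 mean-centred log2 values. With 4 values per gene, close matches arise easily. Nearest to Mmp8 were Retnlg, S100a8 and S100a9, at distances of 0.23, 0.23 and 0.26. For Mmp9 they were Gm34403, Trem3 and Pram1, at 0.12 to 0.18, and for Mmp12 Tal2 and Gm19343, at 0.10 and 0.29. Nearest to Mmp2 were Ms4a7, Tex14 and Msr1, at 0.06 to 0.09, and to Mmp19 Ntn5, Pianp and Tbxas1, at 0.06 to 0.09. Ms4a7 is on the list of monocyte and interstitial macrophage markers, although Mmp2 was set with the stromal enzymes. Mmp13 had Vmo1, 2310039F13Rik and Mucl3 nearest, at 0.05 to 0.08.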

How the data were processed

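Lung RNA of 4 pools of 5 mice was hybridized to 4 Agilent arrays (design 074809), which shared 1 slide and 1 scan day per the file headers. The processed signal and its error are linear intensity values from Feature Extraction, which subtracts background, per the file headers. Those headers give version 10.7.1.1, whereas the submitters' processing notes list 9.5.1.1. Columns marking background and outliers, per the file headers, hold 0 or 1. The deposited value table is also linear intensity, with a median of 71.5 in each column, and on the log2 scale the correlation of each column with its array's processed signal was 0.9998 or more.

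Outlier spots (31 to 54 of 59305 non-control spots an array) were removed, and 0 spots were saturated. Replicate spots of a probe were averaged before log2, and the 75th percentile of the array was then taken off. RefSeq names (GRCm38.p6) were given to probes, and the brightest probe stood for its gene. An array had 20132 to 20912 of the 27195 genes well above background. A gene above background on 1 array of a pair got a bound. Probe coordinates are on mm9, per the file headers. The number of arrays limits the precision.

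All 10 genes are named, and some other genes are not reported here. Other lists are counted, naming up to 4 genes past 2-fold per list, direction and comparison. Genes quoted below 2-fold were chosen after their values were seen. The members and lists were chosen with earlier results of these data known. The additive fit was tested on simulated data without an interaction, which does not bear on the differences between single arrays. Tools were limma 3.58.1 (R 4.3.3) and Python 3.11.15 (numpy 2.4.6; pandas 2.3.3; figures by matplotlib 3.10.9). Other settings were quantile normalization, normexp (offset 50), centring on the median, the value table, stricter and absent filters on dim probes, averaging all probes of each gene and a 1.5-fold threshold.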

Additional observations from a re-analysis of the deposited data

Results flagged for a closer look

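The PPE difference of Mmp9 had opposite signs in the 2 surgeries, at -0.23 in ORX and 1.26 in sham mice, so that ORX minus sham was -1.48 on the log2 scale. It was between -1.57 and -1.09 under the 5 alternatives tried. Read the other way, the ORX difference of Mmp9 was -0.92 under PPE and 0.56 under PBS, which differ by the same -1.48. For Mmp8 the ORX difference was -0.84 under PPE and 0.84 under PBS, and these differ by -1.68, with -1.77 to -1.40 under the alternatives. Among 19320 genes 58 lay lower than Mmp8 in this quantity, 88 lay lower than Mmp9, and 284 (1.47%) were at -1 or below. Each effect is a single pair of arrays, so neither difference was tested, and the 4 differences of a gene come from the same 4 values.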

How the results depend on the processing

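Of the 10 genes, the number at least 2-fold apart was 2 for PPE in sham mice, 1 for PPE in ORX mice, 0 for ORX under PPE and 1 for ORX under PBS. Under normexp background correction these counts became 1 in the PPE comparison of sham mice and 0 in the ORX comparison under PBS, and the others did not change. At a 1.5-fold threshold it was 7 for PPE in sham mice, 2 for PPE in ORX mice, 3 for ORX under PPE and 3 for ORX under PBS, by construction. Quantile normalization, median centring and the value table each added Mmp13 for PPE in sham mice. The additive fit called 0 members under each alternative, with adjusted p-values of 0.249 or more. No call changed sign. Of 40 differences, 37 kept their sign with normexp, 39 with each of quantile normalization, median centring and the value table, and 38 with the mean of all probes, where Mmp12 for ORX under PBS was -0.15 and Mmp7 -0.12. Over all genes normexp gave 67 calls, against 356, for PPE in sham mice, 26, against 225, for PPE in ORX mice, 94, against 361, for ORX under PPE and 96, against 391, for ORX under PBS. Median centring brought the share of higher calls for ORX under PBS to 42.6%, against 31.7%, and normexp brought it to 86.6% for PPE in sham mice, against 73.6%, and to 4.26% for ORX under PPE, against 18.6%. For PPE in sham mice, 219 genes were called when all 4 arrays had to be above background, 2062 with no filter and 1910 at 1.5-fold. Sham/PBS was lowest for 6 of 10 genes with normexp and 8 of 10 with median centring, where 28.9% and 41.1% of all genes had it lowest. No paired analysis was possible because each group is 1 array with no replicate number to pair, although surgery is a term in the additive fit. Signals near background limit Mmp7, Mmp13 and the dim probes of Mmp12.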
